A study of Homo sapiens with 9 samples.

Results

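The 38 genes described here encode the cytosolic and mitochondrial heat shock chaperones, their co-chaperones and HSF1 and HSF2, the transcription factors of the heat shock response. They were chosen by name and function, as rows of the count table whose Ensembl identifier carries one of the 38 symbols in GENCODE release 29. All 38 were found among the 58721 genes of the table, and 35 of them had enough counts to be among the 16441 genes tested. The 3 genes left out by the filter on low counts were HSPA1A, HSPA1B and CRYAB.

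Heat shock chaperones bind unfolded or half-made proteins and keep them from aggregating, and several use ATP to drive repeated rounds of folding. HSP70 proteins receive clients from DNAJ proteins and can pass them on to HSP90, which matures kinases and hormone receptors, while the ring-shaped CCT complex folds actin and tubulin. HSPD1 and HSPE1 form the folding chamber of the mitochondrial matrix, and mitochondrial HSP70 and TRAP1 work beside it. Under stress HSF1 binds heat shock elements, repeats of the letters GAA and TTC, and raises transcription of many of these genes.

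Total RNA of H1299 cells, a widely used human line from a lung carcinoma, was sequenced in 9 libraries of 3 groups. The control cells were in serum free medium, the siCLOCK cells received small interfering RNA against CLOCK, an activator of the circadian clock, and the melatonin cells received 0.1 mM melatonin, a hormone of the night phase. Each group has 3 libraries, and no non-targeting siRNA, treatment time or sequencing date is given in the labels. The medium of the siCLOCK and melatonin cells is not given in the labels either. Whether the samples came from separate cultures is not given, so each p-value reflects the spread among these samples alone, and that spread may be technical.

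The libraries held 15384539 to 19192962 gene counts. They fell into a pair of technical sets by the share of unmapped reads: the 3 control libraries with siCLOCK replicates 1 and 2 had 1.22 to 1.36%, and siCLOCK replicate 3 with the 3 melatonin libraries had 2.24 to 2.34%. The second set holds no control and the first no melatonin library, so siCLOCK replicate 3 alone links the sets, and a model with a term for the set was fitted beside the one without it. CLOCK itself was at 39.0, 38.6 and 44.4 CPM (a gene's count scaled to a common library size) in the control libraries and at 20.9, 32.0 and 38.1 CPM in the siCLOCK libraries, a log2 difference of -0.42 that did not pass (edgeR adjusted p = 0.340) and that was -0.62 without siCLOCK replicate 3 (adjusted p = 0.0179). Of the markers of H1299, KRT8, KRT18, VIM and NRAS were expressed and EPCAM was at 0.213 to 0.476 CPM. These 5 line markers summed to 2337 to 2683 CPM in control and 1992 to 2061 CPM in melatonin libraries, and their part in the melatonin results below was not tested. Leukocyte markers summed to at most 0.420 CPM in any library, with CD3E at 0, and erythroid markers to at most 0.0561 CPM, with HBB at 0. Fibroblast markers summed to 2.40 to 3.66 CPM and endothelial markers to 2.77 to 5.37 CPM.

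The promoters of the chaperone genes are shown first, because the heat shock element is the sequence that names this regulon. In RefSeq windows of build GRCh38.p14, reaching from 250 bases before each annotated start to 50 bases after it, 34 of the 38 genes had an entry. An element of 3 units (GAA, TTC and GAA, or TTC, GAA and TTC, with any 2 bases between neighbouring units, on either strand) lay in the windows of 7 of these 34 genes (20.6%), against 166 of the 27305 genes of the table (0.608%). The 7 genes were HSP90AA1, HSP90AB1, CHORDC1, HSPA8, DNAJA1, DNAJB6 and HSPD1. The elements follow 5′ to 3′ on the gene's strand with the element in capitals, and lower-case letters give the surrounding promoter, left out where an annotated exon of another transcript covers it.
HSP90AA1 (chr14:102087120-102087132, minus strand): TTCCGGAAGGTTC
HSP90AB1, distal (chr6:44247748-44247820, plus strand): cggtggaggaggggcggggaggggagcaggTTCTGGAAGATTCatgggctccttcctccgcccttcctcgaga
HSP90AB1, proximal (chr6:44247801-44247865, plus strand): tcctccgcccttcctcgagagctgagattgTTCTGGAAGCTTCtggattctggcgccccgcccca
CHORDC1 (chr11:90223092-90223104, minus strand): TTCGCGAAGGTTC
HSPA8, distal (chr11:123062354-123062366, minus strand): GAAAGTTCCAGAA
HSPA8, proximal (chr11:123062179-123062191, minus strand): TTCTGGAAGGTTC
DNAJA1 (chr9:33025276-33025288, plus strand): GAACTTTCCAGAA
DNAJB6 (chr7:157336843-157336915, plus strand): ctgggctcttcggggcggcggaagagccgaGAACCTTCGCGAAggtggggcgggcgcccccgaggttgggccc
HSPD1 (chr2:197500073-197500085, minus strand): TTCTGGAAAGTTC
Counted to the first letter of the element, these lie 88 bases before the start in HSP90AA1, 165 and 112 in HSP90AB1, 55 in CHORDC1, 230 and 55 in HSPA8, 131 in DNAJB6 and 245 in HSPD1, and in DNAJA1 the element begins 3 bases after the start. Each distance is to the annotated start of the window that holds the element, and a gene can have several windows. CHORDC1 and HSPD1 hold further elements that overlap the one printed. A match is a description of the letters, not of a bound site.

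The E-box CACGTG, a sequence bound by CLOCK with its partner ARNTL, lay in the windows of 4 of the 34 genes (11.8%), against 8.77% of all genes with a window. The 4 genes were HSF2, HSPD1, HSPE1 and HSPA9. HSPD1 and HSPE1 are transcribed away from each other, and their windows share 1 E-box at chr2:197500357-197500362. In HSPD1 the E-box and the heat shock element lie in windows of different annotated starts (chr2:197500225-197500524 and chr2:197499791-197500090). The match of HSF2 printed here, with its 6 letters in capitals, is the only one outside any annotated exon.
HSF2 (chr6:122399301-122399355, plus strand): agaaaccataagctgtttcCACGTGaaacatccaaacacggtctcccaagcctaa

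In the control cells the chaperone genes together made up 2.21% of all gene counts. Compared per kilobase of annotated exon, HSP90AA1 (stress-inducible cytosolic HSP90) had the highest level at 1170 CPM per kilobase, followed by HSP90AB1 (its constitutive partner gene) at 1106. Next came the small heat shock protein HSPB1 at 556, the constitutive HSP70 HSPA8 at 474 and the mitochondrial chaperonin HSPD1 at 282 CPM per kilobase. The 8 CCT subunits, which stand in equal number in the assembled ring, spanned 81.8 (CCT2) to 168 (CCT3) CPM per kilobase. HSF1 was at 24.5 and HSF2 at 16.2 CPM per kilobase. HSPE1, the lid of the HSPD1 chamber, was at only 8.77 CPM per kilobase. Exons of another annotated gene, the HSPE1-MOB4 readthrough, cover 47.9% of its coding bases, and reads that overlap more than 1 gene are set aside as ambiguous in these counts (9.77 to 10.6% of reads).

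**Figure D1:**
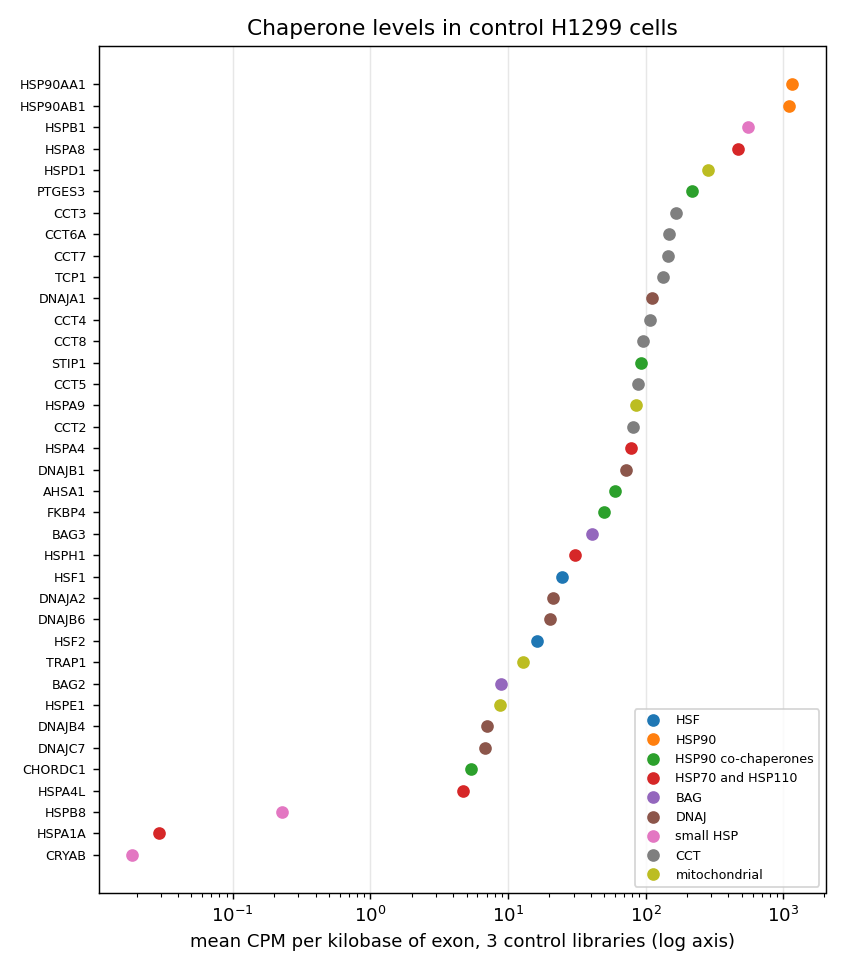
Mean level of each chaperone gene over the 3 control libraries, in CPM per kilobase of exon (log axis), coloured by class and ordered by level. HSP90AA1 (1170) and HSP90AB1 (1106) lie highest, and HSPB8, HSPA1A and CRYAB lie below 1; HSPA1B, at 0 in control, is not drawn.

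The stress-inducible HSP70 genes were nearly without counts. HSPA1A had 1, 1 and 2 counts in the control libraries, 9, 7 and 0 in siCLOCK and 2, 4 and 5 in melatonin. HSPA1B had 0 counts in 8 libraries and 1 count in melatonin replicate 2. The genes are a tandem pair on chromosome 6 (HSPA1A at 31815464-31817946 and HSPA1B at 31827735-31830255, GRCh38): of the 1777 windows of 150 bases in the coding sequence of HSPA1A, 1560 (87.8%) occur unchanged in HSPA1B. The first of these windows, coding bases 1 to 150, which the copies share letter for letter, shows what a read would have to tell apart.
HSPA1A and HSPA1B, coding bases 1 to 150: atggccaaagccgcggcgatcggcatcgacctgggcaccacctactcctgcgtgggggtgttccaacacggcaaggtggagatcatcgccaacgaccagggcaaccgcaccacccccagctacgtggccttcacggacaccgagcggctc
Reads that align to several places were kept apart as multimapping (3.57 to 3.83% of reads) and are in no gene's count, so reads from the shared stretches are not in these values. Over the whole annotated transcripts, 67.1% of the windows of HSPA1A and 66.0% of those of HSPA1B are shared with another gene, and the counts above come from what remains. Exons of another annotated gene, AL671762.1, also cover 47.8% of the coding bases of HSPA1B, and reads that overlap both are set aside as ambiguous. The small heat shock gene CRYAB, a lens and muscle chaperone, had 0 to 5 counts per library. HSPB8, the small heat shock partner of BAG3, had 10 to 19 counts per library.

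The first question was whether siRNA against CLOCK moved chaperone mRNA. No chaperone gene passed in siCLOCK against control: 0 of 35 were higher and 0 of 35 lower (edgeR quasi-likelihood test, adjusted p under 0.05), where 0.0547% of all genes tested were higher and 0.0669% lower. The median log2 difference of the 35 genes was 0.01, and that of all genes was 0.00. At an unadjusted p under 0.05 there were 2 of the 35, HSPA8 and HSPE1, against 8.24% of all genes, and DESeq2 called 0 as well. HSPA8, which carries most of the constitutive HSP70 work of the cytosol, was at 2163, 2210 and 2518 CPM in control and at 3011, 2411 and 2379 CPM in siCLOCK, a log2 difference of 0.18 (SE 0.08, adjusted p = 0.578). Only siCLOCK replicate 1 stood above every control library for this gene. HSPE1 was at 17.3 CPM in control and 20.3 CPM in siCLOCK on average, a log2 difference of 0.23 (SE 0.10, adjusted p = 0.529). DNAJB1 and DNAJB6, J-domain partners of HSP70, had all 3 siCLOCK libraries above all 3 controls (0.09 and 0.10 on the log2 scale, neither passed), 2 of 35 genes where 5.75% of all genes did so, and 0 of 35 had them below, where 5.06% did.

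The siCLOCK libraries differed among themselves in the chaperone genes. Replicate 1, with the lowest CLOCK (51.5% of the control mean), was the highest of the 3 siCLOCK libraries in 27 of the 35 genes, where 35.9% of all genes had their highest siCLOCK value there. It was the highest of all 9 libraries in 16 of the 35 genes, where 17.0% of all genes were. The median log2 ratio of the 35 genes to their control mean was 0.09 in replicate 1, -0.07 in replicate 2 and -0.04 in replicate 3. Leaving out any 1 library still gave 0 chaperone genes higher and 0 lower, as did the set term, with which 0.444% of all genes were higher and 0.262% lower.

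The second question was whether melatonin did so. HSP90AA1, HSP90AB1, the HSP90 co-chaperones PTGES3 and FKBP4, HSPB1, the CCT subunits TCP1, CCT5 and CCT8, and the mitochondrial chaperones HSPD1, HSPA9 and TRAP1 were lower than in control, at 77.8 to 85.5% of their control means, and DNAJB4 was higher. That is 11 of 35 genes lower (31.4%) and 1 higher (2.86%), where 12.1% of all genes tested were lower and 11.0% higher (edgeR quasi-likelihood test, adjusted p under 0.05). HSP70, HSP110, BAG and HSF genes did not pass. The median log2 difference was -0.14 over the 35 genes and 0.01 over all genes, and 27 of the 35 had a negative value where 48.2% of all genes did. All 3 melatonin libraries lay below all 3 controls in 21 of the 35 (60.0%), against 21.4% of all genes, and above them in 1, DNAJB4, against 21.9%.

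With a term for the technical set, 0 of the 35 passed as higher and 0 as lower, where 1.72% of all genes were higher and 2.96% lower. All 11 lower genes kept a negative value, with a median of -0.20 against -0.31 without the term, and their adjusted p lay between 0.0973 and 0.988. The median standard error of the chaperone genes was 0.12 with the term and 0.07 without. For each of the 11, siCLOCK replicate 3 lay below the control mean (median -0.14) and the 3 melatonin libraries lay below all 6 other libraries, siCLOCK replicate 3 included. The 11 were picked for low melatonin values in these same libraries, so their signs and low melatonin libraries follow in part from that choice. Of the genes that did not pass without the term, 7 took the opposite sign with it, namely HSF1, HSF2, AHSA1, HSPA4, HSPA4L, BAG3 and CCT7, and none of them passed with it. The term is estimated from siCLOCK replicate 3 against siCLOCK replicates 1 and 2. CLOCK was at 93.8, 51.5 and 78.7% of its control mean in these libraries, in that order. The term cannot separate the set from other differences among the siCLOCK libraries. How much of the difference belongs to melatonin and how much to the set therefore cannot be told apart.

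**Figure D2:**
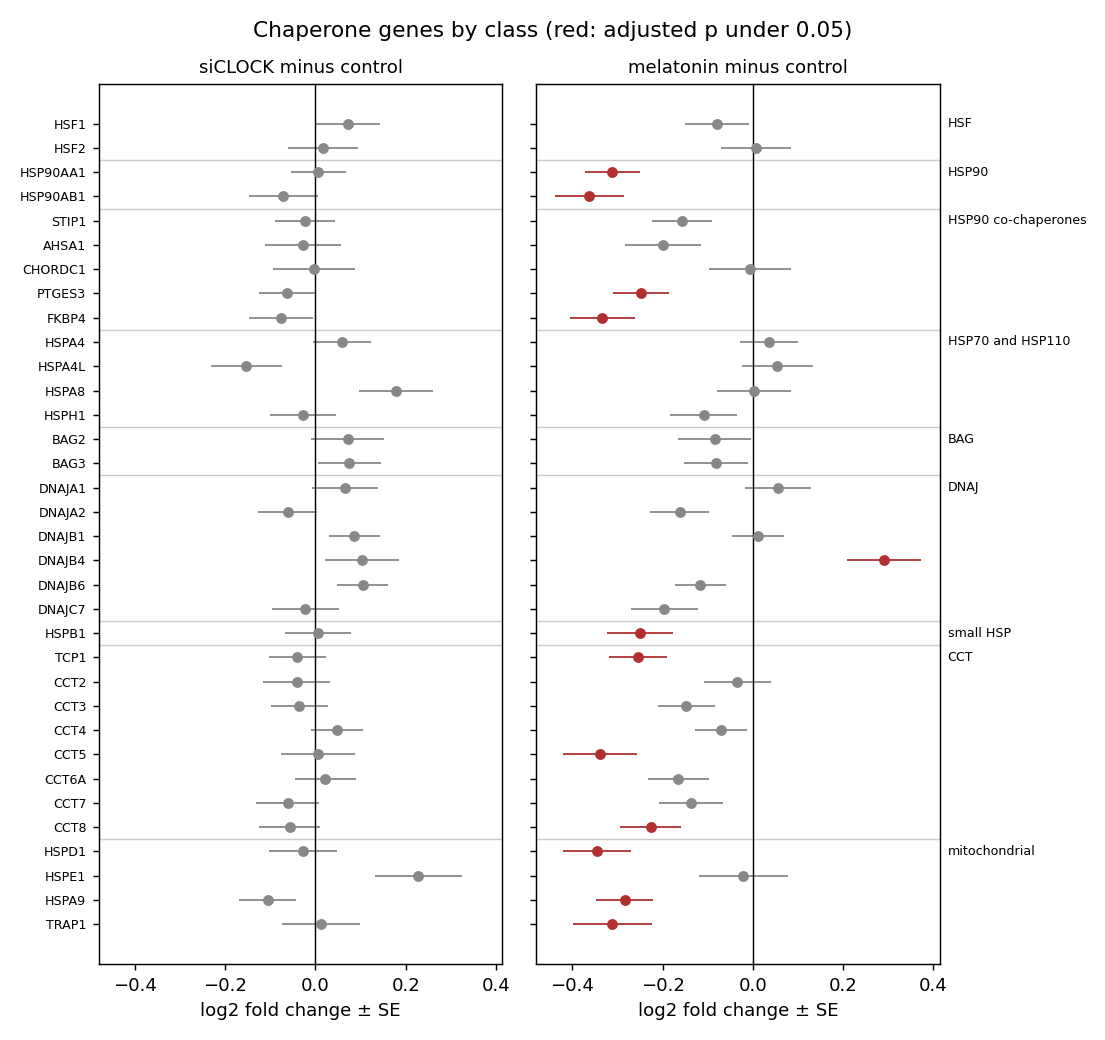
Log2 fold change of each tested chaperone gene by class in siCLOCK against control (left) and melatonin against control (right), with bars of 1 standard error and red for an adjusted p under 0.05. HSPB8 is not drawn because of its low counts; the left panel has no red point, and in the right panel the red points are the 11 lower genes and DNAJB4.

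Of the 9 classes, the HSP90 pair had the largest difference in summed CPM. HSP90AA1 (ENSG00000080824.18, chr14:102080738-102139699, minus strand) was at 6322, 5902 and 6202 CPM in control, 6532, 5928 and 6052 CPM in siCLOCK and 5166, 4820 and 4857 CPM in melatonin. The melatonin libraries were the lowest 3 of the 9, and control and siCLOCK overlapped. Its log2 difference in melatonin against control was -0.31 (SE 0.06, adjusted p = 0.00118), and -0.27 with the set term. HSP90AB1 (ENSG00000096384.19, chr6:44246166-44253888, plus strand) was at 3436, 3169 and 3284 CPM in control, 3639, 2924 and 2851 CPM in siCLOCK and 2553, 2556 and 2582 CPM in melatonin. It too was lowest in melatonin, with siCLOCK replicates 2 and 3 in between. Its difference was -0.36 (SE 0.08, adjusted p = 0.00227), and -0.16 with the set term. Both genes hold heat shock elements in the windows printed above. Summed, the pair fell from 9438 ± 346 CPM (SD, n = 3) in control to 7512 ± 182 CPM in melatonin, 79.6% of control.

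Among the HSP90 co-chaperones, PTGES3 (p23, which stabilises the closed HSP90 dimer) was at 743, 695 and 766 CPM in control and 632, 603 and 620 CPM in melatonin, a log2 difference of -0.25 (SE 0.06, adjusted p = 0.00696) that was -0.31 with the set term. Counted on strand column 3 alone, the call of PTGES3 did not pass. FKBP4, an immunophilin of steroid receptor complexes, was at 277, 255 and 239 CPM in control and 197, 208 and 206 CPM in melatonin, a difference of -0.33 (SE 0.07, adjusted p = 0.00247) that was -0.17 with the set term. In both genes no melatonin library reached a control library. STIP1, which bridges HSP70 and HSP90, did not pass (-0.16, adjusted p = 0.0922), nor did AHSA1, the activator of the HSP90 ATPase (-0.20, adjusted p = 0.0938, and 0.09 with the set term). CHORDC1, an HSP90-binding protein with a heat shock element in its promoter window, was at 57.2 CPM in control and 57.0 CPM in melatonin on average (-0.01, adjusted p = 0.974).

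Without the set term, HSP70 and HSP110 mRNA in melatonin was near its control level. Summed over the 6 HSP70 and HSP110 genes, control libraries held 3014 ± 239 CPM and melatonin libraries 3012 ± 67.1 CPM (99.9%), and 0 of the 4 genes tested passed. HSPA8 (ENSG00000109971.13, chr11:123057489-123063230, minus strand), with a heat shock element at 55 and another at 230 bases before its start, was at 2332, 2258 and 2314 CPM in melatonin, within the range of the controls (log2 difference 0.00, SE 0.08, adjusted p = 0.988). HSPH1, an HSP110 that swaps nucleotide on HSP70, was at 249, 246 and 283 CPM in control and 255, 226 and 239 CPM in melatonin (-0.11, adjusted p = 0.306). HSPA4L, another HSP110, was at 51.7, 53.0 and 59.9 CPM in control and 59.5, 59.3 and 52.2 CPM in melatonin (0.05, adjusted p = 0.668). For HSPA4, the remaining tested gene of the class, the difference was 0.04 (adjusted p = 0.731). In all 4 genes the control and melatonin libraries overlapped. With the set term the differences were 0.19 for HSPA8, -0.07 for HSPH1, -0.09 for HSPA4L and -0.01 for HSPA4, and none passed.

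BAG proteins release clients from HSP70. BAG3, which steers clients to autophagy and is itself a heat shock gene, was at 110, 111 and 116 CPM in control and 107, 107 and 104 CPM in melatonin (-0.08, adjusted p = 0.438, and 0.17 with the set term). BAG2, an inhibitor of the ubiquitin ligase CHIP, was at 55.6, 56.7 and 64.0 CPM in control and 57.1, 52.7 and 56.3 CPM in melatonin, and did not pass (adjusted p = 0.485). HSF1 was at 135, 132 and 124 CPM in control, 152, 132 and 127 CPM in siCLOCK and 119, 123 and 128 CPM in melatonin (melatonin against control -0.08, adjusted p = 0.455). HSF2 was at 43.8, 41.0 and 46.6 CPM in control, 41.7, 44.7 and 46.4 CPM in siCLOCK and 47.2, 41.3 and 43.6 CPM in melatonin (0.01, adjusted p = 0.960). Both factors overlapped between the groups. The mRNA of HSF1 does not report its activity, which is set by trimerisation and modification of the protein.

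Of the 6 DNAJ genes, 1 was higher in melatonin than in control and 0 were lower, where 11.0% of all genes were higher and 12.1% lower. DNAJB4 (chr1:77979175-78017964, plus strand), a J-domain protein of the DNAJB1 type, was at 27.6, 24.5 and 27.5 CPM in control, 29.3, 26.2 and 30.1 CPM in siCLOCK and 32.5, 33.4 and 31.5 CPM in melatonin. Every melatonin library was above the other 6, the log2 difference from control was 0.29 (SE 0.08, adjusted p = 0.0152), and with the set term it was 0.17. The call did not pass when control replicate 2, melatonin replicate 1 or melatonin replicate 2 was left out, or on strand column 4 alone. DNAJA1, a farnesylated partner of HSPA8 with a heat shock element beside its start, was at 294, 293 and 333 CPM in control and 324, 307 and 325 CPM in melatonin (0.06, adjusted p = 0.633). DNAJB1, the main stress-inducible J protein, differed by 0.01 (adjusted p = 0.920). DNAJC7, which binds both HSP70 and HSP90, was at 66.1, 58.1 and 66.4 CPM in control and 54.9, 57.8 and 53.5 CPM in melatonin and did not pass (-0.20, adjusted p = 0.0650). DNAJA2 (-0.16, adjusted p = 0.0830) and DNAJB6 (-0.12, adjusted p = 0.146) did not pass either.

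Of the small heat shock proteins, HSPB1 (HSP27, an ATP-independent holdase that also binds actin) was at 917, 922 and 889 CPM in control, 902, 1022 and 814 CPM in siCLOCK and 715, 780 and 797 CPM in melatonin. The 3 melatonin libraries lay below the others, by a log2 difference of -0.25 from control (SE 0.07, adjusted p = 0.0194). With the set term the difference was -0.01, and the call was also lost without control replicate 1, control replicate 2 or melatonin replicate 1, and on strand column 4 alone. HSPB8, at under 1 CPM, differed by 0.45 (SE 0.29, adjusted p = 0.299).

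**Figure D3:**
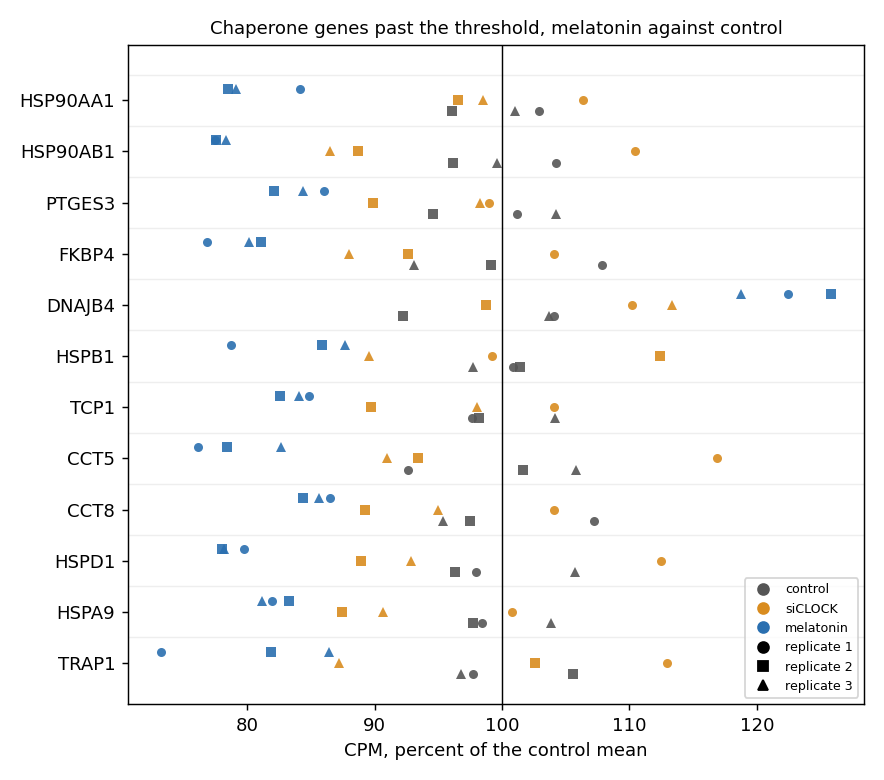
CPM in every library, as a percentage of the control mean (line at 100%), of the 12 chaperone genes that passed in melatonin against control, with colour for the group and shape for the replicate. The 3 melatonin libraries lie below the other 6 in the 11 lower genes and above them in DNAJB4.

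**Figure D4:**
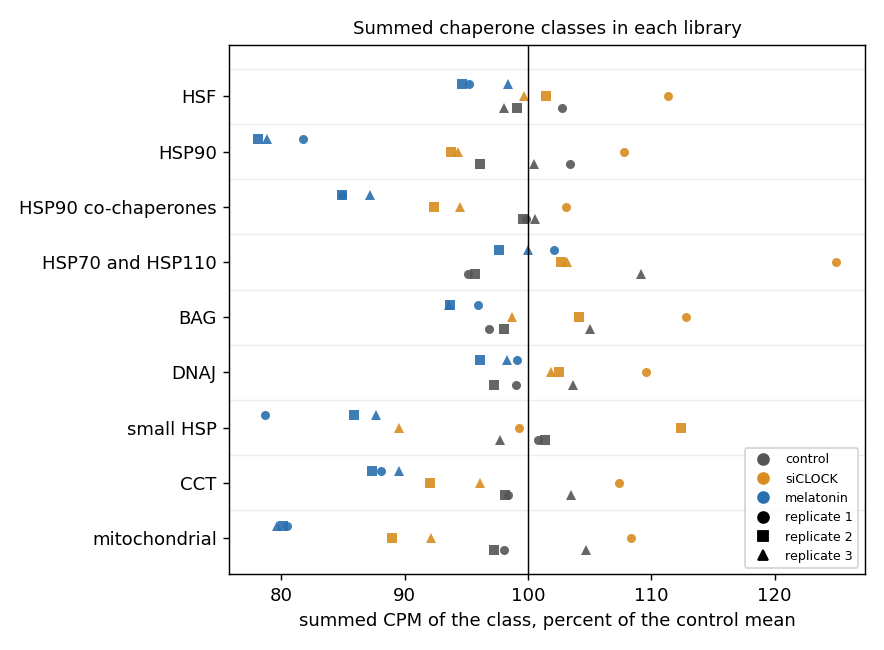
Summed CPM of each class of chaperone genes as a percentage of the class's control mean, 1 point per library, coloured by group, with the replicate as the marker's shape and a line at 100%. The melatonin libraries of the HSP90, HSP90 co-chaperone, BAG, small HSP, CCT and mitochondrial classes lie below all others, while in the HSP70 and HSP110 class control and melatonin overlap.

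All 8 CCT subunits had negative values in melatonin against control, and 3 of the 8 passed, where 12.1% of all genes were lower. TCP1, subunit alpha, was at 641, 644 and 683 CPM in control, 683, 588 and 643 CPM in siCLOCK and 556, 541 and 551 CPM in melatonin (log2 difference -0.25, SE 0.06, adjusted p = 0.00695; -0.27 with the set term). CCT5, subunit epsilon, was at 475, 521 and 542 CPM in control, 599, 479 and 466 CPM in siCLOCK and 390, 402 and 423 CPM in melatonin (-0.34, SE 0.08, adjusted p = 0.00603; -0.13 with the set term). CCT8, subunit theta, was at 320 ± 20.2 CPM in control and 274 ± 3.49 CPM in melatonin (-0.23, SE 0.07, adjusted p = 0.0206; -0.20 with the set term). The call of CCT8 did not pass without control replicate 1, melatonin replicate 2 or melatonin replicate 3. CCT3, the subunit with the highest level per kilobase, was at 654, 675 and 695 CPM in control and 603, 601 and 622 CPM in melatonin; the groups did not overlap, but the difference of -0.15 did not pass (adjusted p = 0.102). The other 4, CCT2, CCT4, CCT6A and CCT7, had adjusted p from 0.0867 to 0.783, and in 7 of the 8 subunits no melatonin library reached a control library, as in 21.4% of all genes. The complex as a sum was at 3921 ± 118 CPM in control, 3864 ± 312 CPM in siCLOCK and 3463 ± 44.0 CPM in melatonin, 88.3% of control.

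In the mitochondrial class 3 of 4 genes were lower in melatonin than in control, where 12.1% of all genes were lower. HSPD1 (HSP60, ENSG00000144381.16, chr2:197486581-197516737, minus strand) was at 1175, 1154 and 1268 CPM in control, 1348, 1066 and 1113 CPM in siCLOCK and 956, 935 and 937 CPM in melatonin. Every melatonin library was below every other library, at 78.7% of the control mean (log2 difference -0.35, SE 0.08, adjusted p = 0.00278), and the difference was -0.23 with the set term. HSPA9 (mortalin, the matrix HSP70, which pulls imported proteins across the inner membrane) was at 698, 693 and 736 CPM in control, 714, 620 and 642 CPM in siCLOCK and 581, 590 and 575 CPM in melatonin. Its difference was -0.28 (SE 0.06, adjusted p = 0.00312), and -0.23 with the set term. TRAP1, the mitochondrial HSP90, was at 67.0 ± 3.25 CPM in control and 53.9 ± 4.47 CPM in melatonin (-0.31, SE 0.09, adjusted p = 0.0150); with the set term the value was -0.01, and the call did not pass without control replicate 2 or melatonin replicate 1. Exons of other genes cover 34.9% of the coding bases of TRAP1. HSPE1, which shares a promoter with HSPD1, was at 15.3, 18.7 and 18.1 CPM in control and 18.2, 16.6 and 16.5 CPM in melatonin (-0.02, adjusted p = 0.906). With the set term its difference was -0.21, against -0.23 for HSPD1.

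Read by promoter, the 7 genes with a heat shock element of 3 units had unlike calls. HSP90AA1, HSP90AB1 and HSPD1 were lower in melatonin, and CHORDC1, HSPA8, DNAJA1 and DNAJB6 did not pass. Of the 4 genes with an E-box, HSPD1 and HSPA9 were lower in melatonin and HSF2 and HSPE1 did not pass, and none of the 4 passed in siCLOCK against control.

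**Figure D5:**
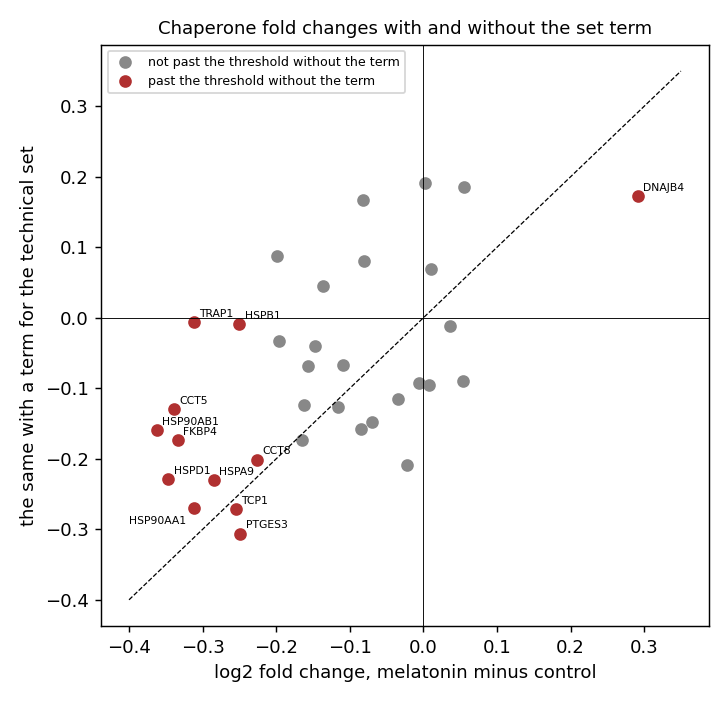
Log2 difference of each tested chaperone gene in melatonin against control without the technical set term (x axis) and with it (y axis); HSPB8 is left out. Genes past the threshold without the term are red and named, and the dashed diagonal marks equal values: the 11 lower genes stay below 0 on the y axis, with HSPB1 and TRAP1 at -0.01.

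Melatonin against siCLOCK shares the melatonin libraries with the comparison above and is not independent of it. HSP90AA1, HSP90AB1, PTGES3, FKBP4, HSPB1, TCP1, CCT5, HSPD1, TRAP1 and DNAJB6 were lower, 10 of 35 genes, and 0 were higher, where 10.1% of all genes tested were lower and 7.43% higher. At an unadjusted p under 0.05 there were 20 of the 35, against 31.3% of all genes. All 3 melatonin libraries lay below all siCLOCK libraries in 20 of the 35 genes, against 17.4% of all genes, and above them in 2, against 16.8%. DNAJB6, a J protein known for suppressing polyglutamine aggregation, was at 302, 295 and 312 CPM in control, 324, 326 and 327 CPM in siCLOCK and 280, 279 and 279 CPM in melatonin. The 3 groups of this gene did not overlap, and the difference of melatonin from siCLOCK was -0.22 (SE 0.06, adjusted p = 0.0109), a call that did not pass without melatonin replicate 2 or melatonin replicate 3. HSP90AA1 differed by -0.32 (SE 0.06, adjusted p = 0.00147), HSPD1 by -0.32 (adjusted p = 0.00696) and HSP90AB1 by -0.29 (adjusted p = 0.0133). CCT8 (adjusted p = 0.0909) and HSPA9 (adjusted p = 0.0566) did not pass here. With the set term, which sets the melatonin libraries against siCLOCK replicate 3 alone, HSP90AA1 was the 1 chaperone gene that passed (-0.29, adjusted p = 0.0337), where 3.85% of all genes were lower and 2.0% higher. The median log2 difference of the 35 genes was -0.16 without the term. The calls of HSP90AA1, CCT5 and HSPD1 passed with any 1 library left out. HSP90AB1 did not pass without siCLOCK replicate 1, TRAP1 without siCLOCK replicate 1 or melatonin replicate 1, FKBP4 without siCLOCK replicate 1 or melatonin replicate 1 or 3, and HSPB1 without siCLOCK replicate 2 or melatonin replicate 1 or 2. TCP1 did not pass without siCLOCK replicate 1 or any 1 melatonin library, and PTGES3 without control replicate 1, siCLOCK replicate 1 or 3 or any 1 melatonin library. Without siCLOCK replicate 1, 5 of the 35 were lower, and without siCLOCK replicate 3, 15 were. Over all genes 1655 were lower in the main fit, 1373 without siCLOCK replicate 1 and 2159 without siCLOCK replicate 3.

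Processed pseudogenes share sequence with many chaperone genes, and 99 of them are named for 19 of the 38. Together they held 14.4 to 16.1 CPM in the 5 libraries of the first technical set and 21.4 to 23.0 CPM in the 4 of the second, siCLOCK replicate 3 included. HSPD1P1 was higher in melatonin than in control (1.12 on the log2 scale, adjusted p = 0.00389), and the difference was 0.07 with the set term. HSP90AA2P was also higher (0.47, adjusted p = 0.0416), with -0.09 under the set term (adjusted p = 0.881), and was highest in siCLOCK replicate 3. HSPB1P1 had only 3, 1 and 2 counts in control, 3, 7 and 7 in siCLOCK and 11, 13 and 13 in melatonin. It was higher in melatonin than in control (2.59, adjusted p = 8.49e-04), and the difference was 2.16 with the set term, which did not pass. These levels are small beside those of the parent genes, and adding each gene's pseudogene counts to its own left 1 chaperone gene higher and 11 lower in melatonin against control.

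The neighbours of the chaperone genes, in 6 further lists, gave these counts in melatonin against control, where 12.1% of all genes were lower and 11.0% higher. Of 15 tested cofactors of HSP90 and HSP70, 4 were lower and 0 higher, among them NUDC, an HSP90 cofactor of dynein (-0.39, adjusted p = 2.34e-04), and HSPBP1, an HSP70 nucleotide exchange factor (-0.48, adjusted p = 0.00946). Of 13 mitochondrial cofactors and proteases 4 were lower and 1 higher, with LONP1, the matrix protease (-0.35, adjusted p = 0.00238), and GRPEL2, an exchange factor of HSPA9 (-0.41, adjusted p = 0.00360), among the lower. Of 15 prefoldin and CCT cofactors 3 were lower and 0 higher, including the tubulin cofactor TBCA (-0.31, adjusted p = 0.0159) and the prefoldin subunit PFDN2 (-0.24, adjusted p = 0.0322). Of 14 other DNAJ genes 1 was lower, DNAJC2, a ribosome-bound J protein (-0.61, adjusted p = 9.16e-05), and DNAJB14 did not pass (0.22, adjusted p = 0.0552). Of 5 tested relatives of HSP70 and the small heat shock proteins 0 passed (HSPA12A 0.31, adjusted p = 0.0512, and HSPA13 0.13, adjusted p = 0.198). With the set term GRPEL2 was still lower (-0.74, adjusted p = 0.00153), and NUDC, HSPBP1, DNAJC2, LONP1, TBCA and PFDN2 did not pass. VBP1, of the prefoldin list, passed as lower only with the term (-0.43, adjusted p = 0.0466; without it -0.12, adjusted p = 0.314). GRPEL2 was at 70.9, 80.6 and 95.3% of its control mean in siCLOCK replicates 1, 2 and 3. With the term it was also lower in siCLOCK against control (-0.40, adjusted p = 0.0285).

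The chaperones of the endoplasmic reticulum, which fold secreted proteins and answer to the unfolded protein response instead of HSF1, were counted for comparison. In melatonin against control 6 of 16 were higher and 0 lower, with a median of 0.17, where 11.0% of all genes were higher and 12.1% lower. With the set term 3 were higher and 0 lower, with a median of 0.25, where 1.72% of all genes were higher and 2.96% lower. The 3 were HSPA5, CALR and DNAJB11, of which DNAJB11 had not passed without the term (0.12, adjusted p = 0.397). HSPA5 (BiP, the HSP70 of this compartment) was at 711, 687 and 666 CPM in control, 693, 765 and 692 CPM in siCLOCK and 912, 908 and 915 CPM in melatonin, a difference of 0.41 (adjusted p = 9.49e-05) that passed with the set term as well (0.48, adjusted p = 0.00631). DNAJB9, its J-domain partner, was higher by 0.45 (adjusted p = 0.00389), and by 0.21 with the set term, which did not pass. Without the set term none of the 6 lists held a gene that passed in siCLOCK against control, and with it only GRPEL2 passed, as lower.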

How the data were processed

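The authors deposited raw counts per gene for 9 libraries, without strand and for each strand, made with STAR 2.7.9a on GRCh38 (hg38), per the submitters' processing notes. The annotation release is not given in the sources used here; GENCODE release 29, taken here for symbols and coordinates, holds all 58721 identifiers of the table. Counts without strand were used. The summary lines that name no gene stayed out of library sizes and tests. The ambiguous lines held 9.77 to 10.6% of reads.

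In R 4.3.3, edgeR 4.0.16 kept 16441 genes (filterByExpr) and fitted TMM-scaled counts of all 9 libraries with a term per group. The quasi-likelihood test was two-sided, with Benjamini-Hochberg adjustment over all genes tested and a threshold of 0.05. CPM are TMM-scaled, and ± is the SD over 3 libraries. In the 3 against 3 design an exact permutation test cannot go below p = 0.1, and it gave 0.1 for CLOCK. The fit was tested on simulated counts with 1.5-fold and 2-fold changes and no effect of the technical set. It recovered 97% and 100% of these changes, and 14 of its 211 calls were false. The chaperone genes that passed differed by less than 1.5-fold, which that test does not cover. A further model added a term for the technical set, split at 1.8% unmapped reads. Alternatives were DESeq2 1.42.0, other scalings, filters, thresholds and strand columns, a replicate block and leaving out each library.

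The genes, lists and tests were chosen with earlier results of these data known. Values per library are given for HSF1, HSF2, HSPA1A, HSPA1B and, per class, the 2 genes with the smallest p in melatonin against control and the one with the highest CPM per kilobase, and for other genes where a result turns on them. Of each further list, the 2 genes with the smallest p are named, and others where a result with the set term turns on them.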

Additional observations from a re-analysis of the deposited data

How the results depend on the processing

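No chaperone gene that passed took the opposite sign under any alternative run, and siCLOCK against control gave 0 higher and 0 lower chaperone genes under all of them. In melatonin against control (1 higher, 11 lower), the technical set term left 0 higher and 0 lower, a fit of only the 6 libraries compared gave 18 lower, strand column 4 or an adjusted p under 0.01 left 0 higher, strand columns 3 and 4 each gave 11 lower but without PTGES3 (STIP1 in its place) and HSPB1 (CCT7 in its place), and a 1.5-fold minimum left 0 and 0. In the fit of only 6 libraries, 2503 of all genes were higher and 2809 lower, against 1803 and 1987 in the main fit. Leaving out 1 library gave 0 to 1 higher and 9 to 16 lower. In melatonin against siCLOCK (0 higher, 10 lower), the set term left 1 lower, an adjusted p under 0.01 left 3 and a 1.5-fold minimum 0, and leaving out 1 library gave 0 to 1 higher (1 without siCLOCK replicate 3) and 5 to 15 lower. CLOCK ranged from -0.62 (without siCLOCK replicate 3, where it passed) to -0.21 (without siCLOCK replicate 1). Counting heat shock elements of 2 units gave 20 of 34 genes (58.8%) in place of 7, against 16.2% of all genes with a window. Over all genes, siCLOCK against control (9 higher, 11 lower) gave 48 and 21 with DESeq2, 152 and 59 without a filter, 3 and 2 with a filter of 5 CPM, 3 and 4 in 6 libraries, 73 and 43 with the set term, 2 and 1 at an adjusted p under 0.01, 3 and 6 at 1.5-fold, 3 or 7 lower in strand columns 3 and 4, and 1 to 69 higher and 1 to 43 lower with 1 library left out. Melatonin against control (1803 and 1987) gave 283 and 487 with the set term, 863 and 1137 at 0.01, 460 and 481 at 1.5-fold, and 1061 to 2213 and 1372 to 2439 with 1 library left out. Melatonin against siCLOCK (1221 and 1655) gave 328 and 633, 464 and 873, 292 and 339, and 619 to 1699 and 1031 to 2159. With a replicate block 1 chaperone gene was higher and 11 lower in melatonin against control and 10 lower in melatonin against siCLOCK, and over all genes siCLOCK against control gave 4 higher and 8 lower; same-numbered samples correlated at -0.09 to 0.06 in their deviations from group means, so the numbers were not taken to pair samples. The causes of these shifts were not tested.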
